A study of Mus musculus with 12 samples.

Results

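The solute carrier genes encode membrane proteins that move nutrients, ions, vitamins, metals and metabolites across the plasma membrane and the membranes of organelles. The genes described here are the 191 protein-coding genes named in the Slc series that were expressed in PreMegEs, of 41128 genes in the count table. They were selected on their measured level, at least 1 CPM (counts scaled to a common library total) in at least 3 of 12 libraries, so their presence is not a finding. Of 366 protein-coding Slc genes by name, 163 did not reach this level, and 12 that did were left out by name. Those 12 were the glucose transporters Slc2a1 and Slc2a3, the lactate transporters Slc16a1 and Slc16a3, the iron transporters Slc11a2 and Slc40a1, the mitochondrial carriers Slc25a37 and Slc25a38, and Slc4a1, Slc26a1, Slc30a1 and Slc38a5. The third-highest CPM of a member over the libraries was 1.12 for Slc14a2, 1.21 for Slc7a11, 1.36 for Slc37a2 and 1.54 for Slc6a8, the members nearest the level. Just below it were Slc9a2 at 0.882, Slc6a20a at 0.705, the serotonin transporter Slc6a4 at 0.705 and Slc12a5 at 0.693.

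Solute carriers are grouped in families by sequence, and members of a family often differ in substrate, in direction of transport and in the membrane that holds them. Dividing erythroid progenitors are known for their demand for amino acids, iron and mitochondrial metabolites for heme and globin synthesis. Megakaryocytes are known for granules that are loaded with monoamines, nucleotides and calcium by transporters in the granule membrane.

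PreMegEs are progenitors that give rise to erythroid cells and megakaryocytes, and they were sorted from the bone marrow of C57BL/6 mice of 12 to 16 weeks in 4 groups with 3 libraries each. WT PreMegEs came from wild-type mice. P2- and P2+ PreMegEs came from heterozygous P1-GFP::P2-hCD4/+ reporter mice, in which GFP reports the distal promoter P1 of Runx1 and human CD4 the proximal promoter P2. Both fractions were P1+ and were parted by hCD4. RUNX1C KO PreMegEs (KO) came from mice lacking RUNX1C, the isoform made from P1. Each library held cells pooled from 3 mice, so the spread between libraries is a spread between pools. WT cells differ from each fraction in genotype and in gate, and the parts of genotype and gate cannot be told apart.

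Libraries held between 10726098 and 14445026 counts (median 12284879), and the members took between 1.20% and 1.33% of them. A count of 0 allows a level of up to 3 counts, which was between 0.208 and 0.280 CPM, and covers counting error only. Runx1 was counted over both promoters and does not check the KO label: it was between 360.7 and 393.0 CPM in WT, 196.5 and 212.4 in P2-, 616.7 and 672.2 in P2+ and 342.1 and 377.6 in KO PreMegEs. All 9 genes listed as markers of PreMegEs were detected in every group. Summed CPM of 12 erythroid markers was between 3134 and 3753 in P2-, 2063 and 2313 in WT, 922 and 1160 in P2+ and 3086 and 3437 in KO libraries. For 12 megakaryocyte markers it was between 147 and 205 in P2-, 607 and 704 in WT, 923 and 1370 in P2+ and 376 and 411 in KO libraries. Neutrophil and monocyte markers, 11 genes, summed to between 59.5 and 116 in P2-, 178 and 314 in WT, 306 and 450 in P2+ and 79.8 and 129 in KO libraries. For 8 mast cell and basophil markers the range was 31.2 to 36.5 in P2-, 31.4 to 56.3 in WT, 101 to 160 in P2+ and 53.7 to 75.2 in KO libraries, and for 9 lymphoid markers it was 3.05 to 11.0, 14.6 to 25.6, 9.05 to 70.7 and 9.42 to 13.3 in the same order. The lymphoid marker Cd3g and the mast cell marker Cma1 were at 0 in all libraries. Immediate early genes summed to 12750 CPM in P2- replicate 2 and 8883 in P2+ replicate 2, against at most 1255 in any other library. In bulk libraries such as these, fewer cells of a type and less RNA per cell cannot be told apart. The part of these markers and of the immediate early genes in the results below was not tested, except that the fractions are also given without both replicates 2.

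Levels between genes are compared in RPKM (CPM per kilobase of exon), as means over all libraries, whose median over the members was 6.13. Slc25a5, the adenine nucleotide carrier of the inner mitochondrial membrane, was highest at 332 RPKM, but reads that also align to near-identical copies may have been counted differently, and the sources used here do not say how. Next came Slc22a3, an organic cation transporter of low selectivity, at 179 RPKM, and Slc14a1, the urea transporter that carries the Kidd antigen on red cells, at 166. Slc48a1, which exports heme from endosomes, stood at 114 RPKM. The highest of other classes included Slc35a4 (75.6 RPKM) among nucleotide sugar transporters, Slc7a5 (63.9), the large neutral amino acid transporter, Slc45a3 (47.5) for sugars, Slc39a1 (29.9) for zinc and other metals, Slc10a3 (28.1) in the lipid and bile acid class, Slc20a1 (26.2) for phosphate, Slc16a6 (23.6) for carboxylates and Slc29a1 (14.0) for nucleosides. Slc9a3r1, at 62.9 RPKM, is a scaffold protein named after a transporter it binds, and it was kept apart with Slc9a3r2, Slc4a1ap and Slc7a6os as not transporters. Of the 191 members, 173 were at or above 1 CPM in all 12 libraries. No member reached it in the libraries of 1 group alone.

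The first comparison asks how far PreMegEs with and without activity of the P2 promoter differ in their transporters. Of 187 members tested with edgeR, 49 were higher and 40 were lower in P2+ PreMegEs at an adjusted p under 0.05, which is 26.2% and 21.4% of them. Among all 12836 genes tested, 20.1% were higher and 17% were lower. With the study's further condition of a change of at least 2-fold, 23 members were higher (12.3%, against 9.54% of all genes) and 16 were lower (8.56%, against 3.13%). The median log2 fold change (P2+ over P2-) was 0.07 over the members and -0.02 over all genes. The members tested leave out Slc6a8, Slc7a11, Slc14a2 and Slc37a2, which passed the level over the 12 libraries but not over these 6. Without both replicates 2, 54 members were higher and 35 lower, with 4774 of all genes called against 4762 in the main fit. P2+ and P2- libraries of the same number are paired, and these fits leave that out. With the replicate number as a block, 64 members were higher and 47 lower, and 6514 of all genes were called. Calls between the fractions below come from the fit without the block unless stated.

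**Figure D1:**
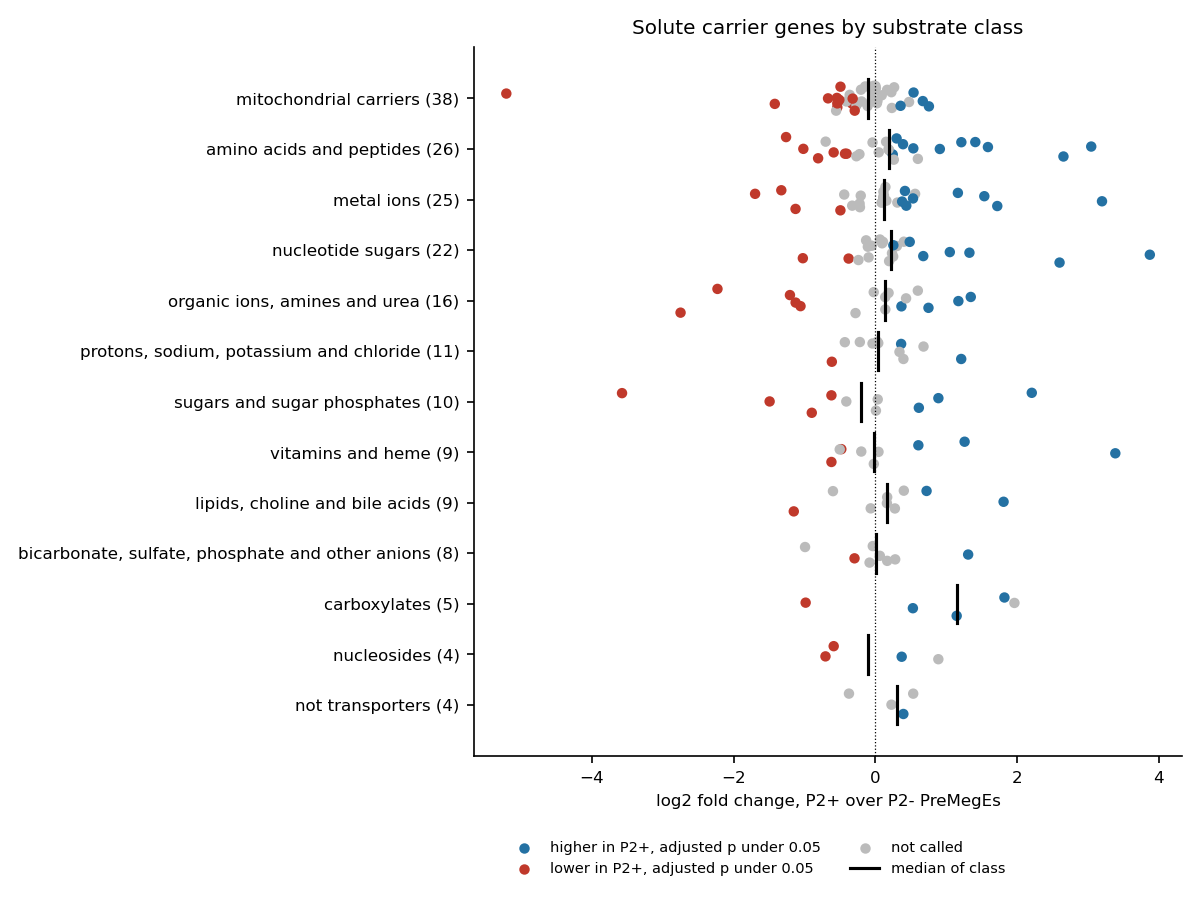
Each point is one of the 187 members tested, placed by its log2 fold change of P2+ over P2- PreMegEs (horizontal axis) within its substrate class (vertical axis, number tested in parentheses). Coloured points passed an adjusted p under 0.05 in edgeR and black bars mark class medians. Members moved both ways in most classes, and 11 of the 15 called mitochondrial carriers lie to the left of 0.

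The largest rise was that of Slc35d3, a protein of the nucleotide sugar transporter family that is required for platelet dense granules. It was at 3.13, 4.38 and 7.13 CPM in the P2- libraries and at 59.2, 67.9 and 94.9 in the P2+ libraries. The WT libraries lay between them at 24.1, 38.3 and 31.3 CPM and the KO libraries at 23.1, 25.3 and 19.5. The log2 fold change between the fractions was 3.88 ± 0.30 (SE), with an adjusted p of 2.29e-05 (edgeR). Members named for the largest rises and falls were required to have no overlap between libraries, so their lack of overlap is no further support. Slc24a5, a potassium-dependent sodium and calcium exchanger of intracellular membranes, was at 1.88, 1.12 and 1.18 CPM in P2- and at 12.7, 11.8 and 14.95 in P2+ libraries, a log2 fold change of 3.20 ± 0.26 (adjusted p = 2.93e-05, edgeR). Its WT libraries again fell between the fractions, at 5.17, 5.66 and 4.26 CPM, and the KO libraries stood nearer to P2- at 3.07, 1.95 and 1.99. Exons of Slc24a5 overlap those of Myef2 on the other strand, and the sources used here do not say whether counting used the strand. Myef2 was at 45.0 CPM in WT, 38.7 in P2-, 48.4 in P2+ and 44.6 in KO PreMegEs on average, with a log2 fold change of 0.29 between the fractions.

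Transporters of amino acids and sugars were among the other large rises. Slc6a15, a sodium-coupled transporter of neutral amino acids, had WT libraries at the level of P2+. It was at 1.49, 1.12 and 1.32 CPM in P2- and 1.67, 2.03 and 0.815 in KO libraries, but at 10.6, 7.76 and 7.21 in P2+ and 8.85, 8.75 and 5.44 in WT libraries. The P2+ and P2- libraries differed by 2.66 ± 0.28 on the log2 scale (adjusted p = 1.21e-04, edgeR), while P2+ and WT libraries overlapped. Slc35e4, of the nucleotide sugar transporter family, was at 2.27, 4.48 and 2.42 CPM in P2- and 16.9, 22.5 and 16.9 in P2+ libraries (2.60 ± 0.29 on the log2 scale). Slc2a10, a facilitative sugar transporter, was at 0.470, 0.932 and 1.87 CPM in P2- and 5.64, 4.29 and 5.90 in P2+ libraries (2.21 ± 0.45 on the log2 scale).

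The largest fall was that of Slc25a21, the mitochondrial carrier of 2-oxoadipate and related acids of lysine breakdown. It was at 34.2, 21.5 and 34.6 CPM in P2- libraries and at 1.11, 0.485 and 0.920 in P2+ libraries. In WT libraries it was at 18.1, 20.8 and 12.5 CPM and in KO libraries at 26.2, 28.9 and 29.3. The log2 fold change of P2+ was -5.21 ± 0.31 against P2- (adjusted p = 6.36e-06, edgeR) and -4.35 ± 0.32 against WT (adjusted p = 1.55e-05, edgeR). The gene spans chr12:56712634-57197472 on the minus strand (GRCm38), and Pax9, whose exons overlap it on the other strand, was at 0 in all groups. 

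Other falls came in organic ion, metal and sugar transporters. Slc22a23, an orphan of the organic ion transporter family, was at 61.5, 55.2 and 60.0 CPM in P2- and 7.61, 10.9 and 8.20 in P2+ libraries, with 23.3, 31.2 and 25.2 in WT and 50.9, 56.0 and 50.6 in KO libraries. The log2 fold change between the fractions was -2.75 ± 0.15 (adjusted p = 4.96e-06, edgeR). Slc22a4, which takes up ergothioneine and carnitine, was lower by -2.23 ± 0.33 on the log2 scale, from 7.05, 7.46 and 11.2 CPM to 1.11, 2.22 and 2.22. Slc41a3, of the magnesium transporter family, went from 52.6, 42.1 and 45.8 CPM in P2- to 16.6, 13.9 and 13.9 in P2+ libraries, a log2 fold change of -1.70 ± 0.13. For Slc22a23, Slc22a4 and Slc41a3, the WT means lay between those of the fractions. Slc45a3, a sugar transporter, was at 225, 264.7 and 197.5 CPM in P2- and 82.6, 100 and 67.4 in P2+ libraries (-1.49 ± 0.16 on the log2 scale). Slc25a42, the mitochondrial carrier of coenzyme A, was at 27.8, 23.3 and 26.7 CPM in P2- and 9.06, 8.17 and 12.5 in P2+ libraries (-1.42 ± 0.18 on the log2 scale).

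**Figure D2:**
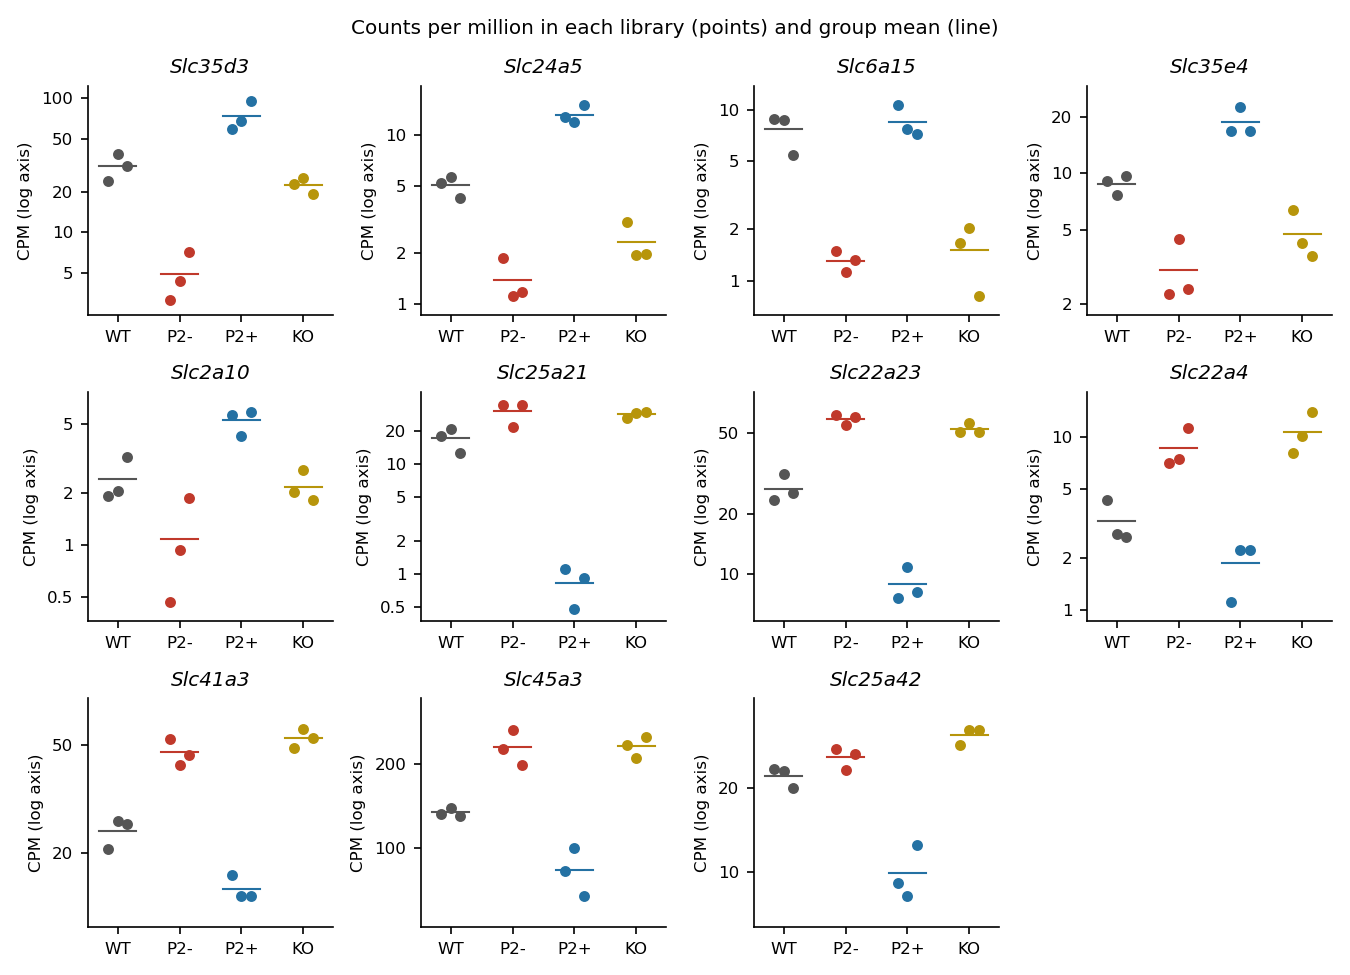
CPM on a log axis in each library (points) and the group mean (line) for 5 of the largest rises and the 6 largest falls between the fractions. WT libraries lie between P2- and P2+ for most of them, and the KO libraries of Slc6a15, Slc22a23, Slc41a3 and Slc45a3 sit at the level of P2-.

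The sequences before the start sites of the members with the largest rises and falls were read where the RefSeq promoter table held them (GRCm38.p6, 250 bases before to 50 bases after the annotated start), to show what lies next to the start of members that moved in opposite directions. Letters of 4 motifs were searched on both strands: AGATAA for GATA factors, TGTGGT for RUNX factors, CCACACCC for Kruppel-like factors and CCGGAAG for Ets factors, each also as its reverse complement. Of the 10 genes with a printable window, 3 held any of them. The window of Slc41a3, which held none, lies 14521 bases from the gene start in GENCODE vM21. Those of the others lie within 110 bases of it. The window of Slc24a5, at chr2:125067877-125068176 on the plus strand, holds the GATA letters 155 bases before the start and the RUNX letters 26 bases after it, both as the reverse complement. That of Slc22a4, at chr11:54028055-54028354 on the minus strand, holds the Kruppel-like letters as the reverse complement from 50 bases before the start, and their last letters are also the first of a RUNX match that begins 47 bases before it. Capitals mark these letters.
Slc24a5: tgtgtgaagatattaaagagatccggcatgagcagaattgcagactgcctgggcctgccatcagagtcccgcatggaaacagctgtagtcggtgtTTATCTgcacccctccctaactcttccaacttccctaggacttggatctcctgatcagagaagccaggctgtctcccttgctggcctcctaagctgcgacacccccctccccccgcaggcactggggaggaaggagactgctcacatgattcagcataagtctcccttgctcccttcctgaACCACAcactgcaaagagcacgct
Slc22a4: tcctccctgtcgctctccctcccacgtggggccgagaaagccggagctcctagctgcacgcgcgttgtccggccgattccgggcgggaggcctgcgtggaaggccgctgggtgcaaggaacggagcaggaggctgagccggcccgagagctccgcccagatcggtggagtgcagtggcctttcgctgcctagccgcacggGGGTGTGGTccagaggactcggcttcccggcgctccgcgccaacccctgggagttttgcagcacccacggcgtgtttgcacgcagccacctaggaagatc

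Over the members with a window, 146 of 191, the letters of the RUNX motif were found in the window of 9 of 29 members lower in P2+ PreMegEs (31%), 5 of 38 members higher (13.2%) and 10 of 79 members not called (12.7%). Of all 27025 genes with a window, 18.9% held them. For the GATA letters the counts were 6 of 29 (20.7%), 3 of 38 (7.89%) and 7 of 79 (8.86%), against 12.7% of all genes, and for the Kruppel-like letters 4 of 29 (13.8%), 3 of 38 (7.89%) and 6 of 79 (7.59%), against 4.09%. The Ets letters were in the windows of 4 of 29 (13.8%), 7 of 38 (18.4%) and 20 of 79 members (25.3%), against 9.93% of all genes. These counts were not tested, and a match of letters is not a binding site.

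Of 38 mitochondrial carriers tested, the largest class, 4 were higher (10.5%, against 20.1% of all genes) and 11 lower (28.9%, against 17%) in P2+ PreMegEs and 23 were not called, with a median log2 fold change of -0.10. Their summed CPM was between 2751 and 2876 in P2-, 2583 and 2629 in WT, 2391 and 2543 in P2+ and 2617 and 2715 in KO libraries, with no overlap between the fractions. Those that fell included the adenine nucleotide carrier Slc25a5 (-0.33 ± 0.08 on the log2 scale), the phosphate carrier Slc25a3 (-0.49), the citrate carrier Slc25a1 (-0.54), and Slc25a39, known for mitochondrial glutathione import (-0.32). Neither Slc25a5 nor Slc25a39 was called by the exact test of edgeR. Slc25a5 also lost the call without P2+ replicate 3 (-0.29), and Slc25a39 without P2- replicate 2 or 3 or P2+ replicate 1 or 3 (-0.32 to -0.28). Slc25a4, the paralogue of Slc25a5, was at 130, 119.6 and 113.1 CPM in P2- and 129.4, 118 and 131.5 in P2+ libraries, and the log2 fold change was 0.03 ± 0.08. The aspartate and glutamate carriers Slc25a12 (0.54) and Slc25a13 (0.76) and the ATP and phosphate carrier Slc25a24 (0.67) were among the 4 that rose.

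**Figure D3:**
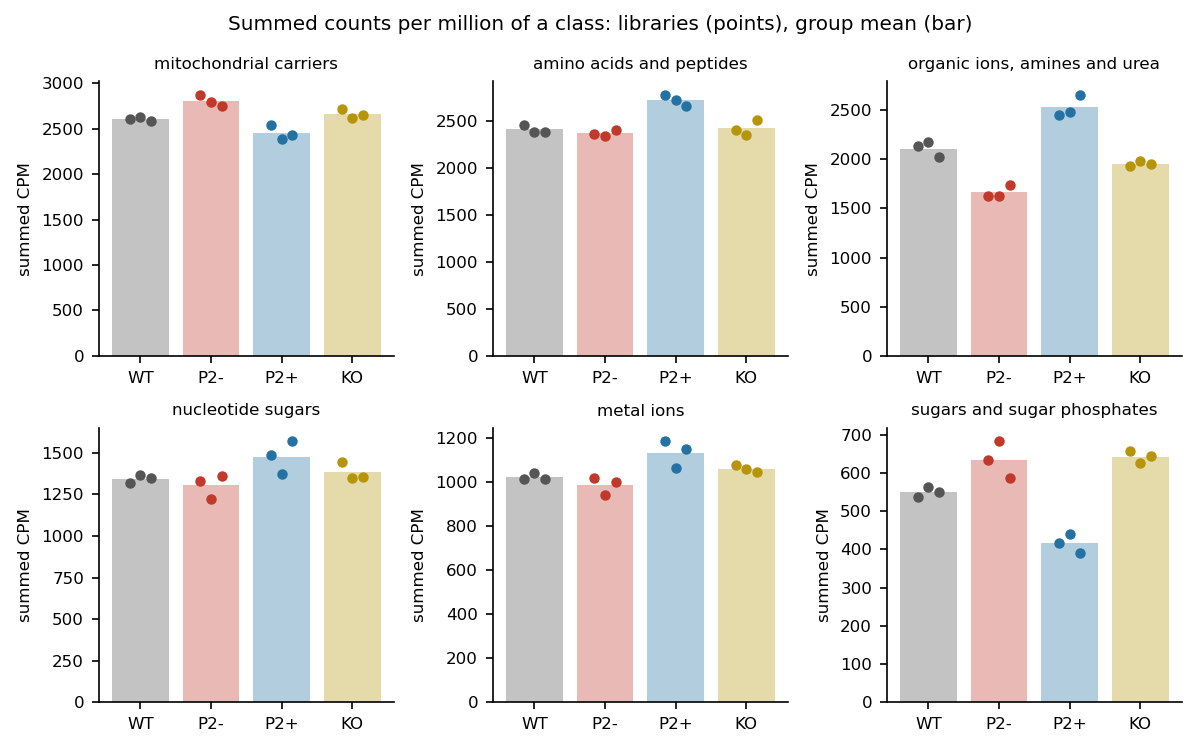
Summed CPM of the members of 6 classes in each library (points), with the group mean as a bar from 0. P2+ libraries are lowest for mitochondrial carriers and sugars and highest for amino acids and for organic ions, where they lie between 2445 and 2658 against 1625 to 1739 in P2-; Slc14a1 alone accounts for 616.1 of the mean difference of 864.9 CPM.

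Amino acid and peptide transporters moved both ways, with 10 higher (38.5%, against 20.1% of all genes) and 6 lower (23.1%, against 17%) of 26 tested and a median of 0.19. Their sum was between 2653 and 2776 CPM in P2+ and 2331 and 2401 in P2- libraries. The Slc7 family showed both directions. Slc7a8, an exchanger of neutral amino acids, rose from 19.4, 22.9 and 30.7 CPM in P2- to 72.1, 58.1 and 69.0 in P2+ libraries (1.41 ± 0.17 on the log2 scale, adjusted p = 2.94e-04, edgeR), Slc7a6 rose by 1.59 and the arginine and lysine transporter Slc7a1 by 0.25. The main exchanger Slc7a5 fell, from 276.8, 269.2 and 270.7 to 212, 226.6 and 192.3 CPM (-0.40 ± 0.08), as did Slc7a4 (-0.43) and Slc7a7 (-1.26). Slc3a2, the heavy chain that Slc7a5, Slc7a6, Slc7a7 and Slc7a8 need to reach the plasma membrane, was at 89.8, 115 and 97.8 CPM in P2- and 98.1, 126.7 and 95.2 in P2+ libraries (log2 fold change 0.05 ± 0.14).

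The abundant glutamine transporters differed little between the fractions. Slc1a5 had a log2 fold change of 0.20 ± 0.11, Slc38a1 of 0.26 and Slc38a2 of 0.19 ± 0.11, and none was called. With the replicate number as a block, the adjusted p was 0.0146 for Slc1a5, 0.000466 for Slc38a1 and 0.0103 for Slc38a2 (edgeR). The lysosomal amino acid sensor Slc38a9 (-1.01) and the lysosomal glutamine exporter Slc38a7 (-0.81) fell, while the amino acid transporters Slc36a1 (0.39) and Slc36a4 (0.91) rose. Slc1a4 fell by 0.59 on the log2 scale, a call lost without P2- replicate 1 (-0.60) or 3 (-0.52), without P2+ replicate 2 (-0.44) and without both replicates 2 (-0.50). Slc43a2 rose by 1.22 and Slc43a3, counted in this class with the rest of its family, by 0.54. The change of Slc43a1, -0.22 on the log2 scale, was not called. The glycine transporter Slc6a9, below 5 CPM in every library, had a log2 fold change of 0.60 ± 0.46. Slc7a11, the cystine transporter, was at 2.12, 1.21 and 0.415 CPM in P2- and 0.342, 0.208 and 0.307 in P2+ libraries and was not tested between them.

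In the class of organic ions, amines and urea, 4 of 16 tested were higher (25%, against 20.1% of all genes) and 5 lower (31.2%, against 17%) in P2+ PreMegEs. All 5 falls were at least 2-fold, a size of fall that 3.13% of all genes had. The higher summed CPM of the class in P2+ libraries came mostly from Slc14a1, which made up 616.1 of the mean difference of 864.9 CPM between the fractions. Without it the sums were between 1250 and 1311 CPM in P2-, 1335 and 1518 in WT, 1511 and 1545 in P2+ and 1356 and 1374 in KO libraries, so that P2+ and P2- libraries still did not overlap but P2+ and WT libraries did. Slc14a1 was at 375, 353.2 and 427.6 CPM in P2-, 617.8, 747.8 and 684.0 in WT, 900.0, 973.9 and 1130 in P2+ and 556, 607.3 and 591.2 in KO libraries. It rose between the fractions by 1.35 ± 0.11 on the log2 scale (adjusted p = 2.87e-05, edgeR), and its difference of -0.21 ± 0.07 between KO and WT was not called. Slc14a2, its neighbour on chromosome 18, was at or under 3 counts in all P2- libraries and at 0.428, 0.970 and 1.23 CPM in P2+ libraries. The P2+ mean was 3.63-fold the mean level of 3 counts in P2- libraries, with no allowance for counting error in P2+. Slc14a2 was not tested between the fractions. Slc18a2, which loads monoamines into granules, was at 135.5, 161.7 and 179.6 CPM in P2- and 267.6, 256.6 and 296.3 in P2+ libraries (0.75 ± 0.11 on the log2 scale). Slc17a9, which loads nucleotides into vesicles, had the opposite sign at -1.05 ± 0.23. Slc17a4 did too, at -1.20 ± 0.41, but was near the threshold (adjusted p = 0.0465, edgeR) and below 5 CPM in every library. Slc22a3, the second most abundant member, was at 729.0, 763.6 and 748.6 CPM in P2- and 884.1, 909.8 and 816.7 in P2+ libraries. Its libraries did not overlap, but the log2 fold change of 0.19 ± 0.07 missed the threshold (adjusted p = 0.0635, edgeR), and with the replicate number as a block it passed (0.00469).

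Among 25 metal ion transporters, 8 were higher (32%, against 20.1% of all genes) and 4 lower (16%, near the 17% of all genes). Zinc importers moved both ways: Slc39a6 (1.17), Slc39a1 (0.44) and Slc39a10 (0.38) rose, while Slc39a3 (-0.49) and Slc39a8 (-1.12), which also carries manganese, fell. The zinc exporters Slc30a4 (1.54) and Slc30a7 (0.53) rose and Slc30a2 (-1.33) fell. Slc39a14, another importer of zinc, manganese and iron, and the exchanger Slc24a3 had log2 fold changes of 0.11 and -0.20 and were not called. Magnesium transporters split as well, with Slc41a1 up by 0.42 and Slc41a3 down as above. The median over the class was 0.12.

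Of 22 nucleotide sugar transporters, 7 were higher (31.8%, against 20.1% of all genes) and 2 lower (9.09%, against 17%), with a median of 0.22. Beside Slc35d3 and Slc35e4, Slc35e3 (1.33) and Slc35f5 (1.05) rose at least 2-fold, and Slc35e2 fell by 1.02 on the log2 scale. The best known Golgi transporters, Slc35a1 for CMP-sialic acid, Slc35a2 for UDP-galactose and Slc35c1 for GDP-fucose, had log2 fold changes of -0.05, 0.07 and 0.20 and were not called. Slc35a4, the most abundant, had -0.13.

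Sugar transporters had the class sum that was proportionally lowest in P2+ libraries among the 6 classes plotted, between 391 and 440 CPM against 587 to 683 in P2-, 536 to 562 in WT and 626 to 656 in KO libraries. Much of it was Slc45a3 and Slc45a4, which fell by 1.49 and 0.62 on the log2 scale. Of 10 tested, 3 were higher (Slc2a9, Slc2a10 and Slc37a1) and 4 lower (Slc2a8, Slc37a3, Slc45a3 and Slc45a4), which is 30% and 40% against 20.1% and 17% of all genes. Slc37a3, chosen after its values were seen because it had the largest fall of a member below the 5 CPM that the naming rule asked for, was at 5.41, 4.48 and 3.53 CPM in P2- and 0.0855, 0.831 and 0.153 in P2+ libraries. Its log2 fold change was -3.57 ± 0.63 (adjusted p = 0.00215, edgeR). Slc37a3 passed the filter of this comparison only through the P2- libraries, where it is high, and was picked for its fall. Neither value is independent of that choice. The call of Slc2a8 (-0.90 ± 0.29, adjusted p = 0.0390, edgeR) was lost without any 1 of 5 of the 6 libraries, with log2 fold changes between -0.999 and -0.695.

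In the smaller classes, 3 of 5 carboxylate transporters were higher (60%, against 20.1% of all genes) and 1 was lower (20%, against 17%). Slc16a9, a carnitine transporter, was at 2.35, 1.68 and 1.80 CPM in P2- and 8.46, 5.33 and 7.44 in P2+ libraries, while Slc16a6, of the monocarboxylate transporter family, fell by 0.98 on the log2 scale and Slc16a7, a pyruvate and lactate transporter, rose by 1.15. Choline transporters went opposite ways, Slc44a1 from 76.9, 60.6 and 53.0 to 25.3, 30.1 and 32.2 CPM (-1.15 ± 0.16) and Slc44a2 up by 0.72. Of 4 nucleoside transporters, the equilibrative Slc29a1 (-0.70 ± 0.10) and Slc29a2 (-0.59) of the plasma membrane fell and the lysosomal Slc29a3 (0.37) rose. Among 9 vitamin and heme transporters, the folate carrier Slc19a1 (-0.62) and the thiamine transporter Slc19a2 (-0.48) fell, and the ascorbate transporter Slc23a2 (0.61), Slc46a3 (1.26) and the riboflavin transporter Slc52a3 (3.39 ± 0.65) rose. Slc52a3 was at 0.235, 0 and 0.485 CPM in P2- and 2.65, 2.42 and 3.45 in P2+ libraries. It passed the filter of this comparison only through the P2+ libraries, so its being tested depended on the group where it is high. Slc46a1, the proton-coupled folate transporter, had a log2 fold change of -0.50 that was not called. Slc48a1 was level, at 318, 296 and 302 CPM in P2- and 300, 318 and 303 in P2+ libraries (-0.02 ± 0.07), although Hdac7, whose exons overlap it on the other strand, had a log2 fold change of -1.30.

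Among transporters of protons, sodium, potassium and chloride, 2 of 11 were higher, among them the sodium and proton exchanger Slc9a9 (1.21), and 1 was lower. These shares, 18.2% and 9.09%, were below the 20.1% and 17% of all genes. The lower one was Slc12a2, the sodium, potassium and chloride cotransporter, at 103.7, 109.0 and 82.8 CPM in P2- and 67.7, 64.0 and 65.9 in P2+ libraries (-0.61 ± 0.11). In the class of bicarbonate, sulfate, phosphate and other anions, Slc4a7 fell by 0.29 and 6 of 8 were not called, among them Slc20a1 at -0.08. Slc4a8 was at 0.705, 0.559 and 0.554 CPM in P2- and 2.05, 1.18 and 1.46 in P2+ libraries. Its rise of 1.31 ± 0.45 was near the threshold (adjusted p = 0.0461, edgeR). It passed the filter of this comparison only through the P2+ libraries, where it is high. In the lipid, choline and bile acid class 2 of 9 rose and 1 fell (22.2% and 11.1%), and Slc10a3 had -0.06. Of the 4 genes that are not transporters, Slc9a3r1 rose by 0.40. No share of a class, here or above, was tested against that of all genes.

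Members of 1 family could differ in direction. Of 42 families with a member, 13 had at least 1 member higher and 1 lower in P2+ PreMegEs, among them Slc2, Slc7, Slc16, Slc22, Slc25, Slc29, Slc35, Slc39 and Slc44. In 18 families the called members had 1 direction only, and 11 had no called member. With 26.2% of the members tested higher and 21.4% lower, a large family can hold both directions, and whether 13 is more than such shares give was not tested.

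The comparison of RUNX1C KO with WT PreMegEs asks which transporters differ when the P1 isoform is missing. The KO libraries have sample numbers apart from those of the other groups, and the paper describes RNA-Seq of WT, P2- and P2+ PreMegEs only. Any difference in when KO and WT libraries were made or sequenced cannot be told apart from genotype. Of 189 members tested with edgeR, 21 were higher and 19 lower in KO PreMegEs, which is 11.1% and 10.1%, against 6.18% and 8.76% of all 12784 genes tested. With the 2-fold condition, 4 were higher (2.12%, against 0.743%) and 5 lower (2.65%, against 2.67%). The median log2 fold change was -0.01 over the members and -0.00 over all genes.

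Slc22a4 rose most, from 4.32, 2.75 and 2.65 CPM in WT to 8.07, 10.1 and 13.9 in KO libraries (1.73 ± 0.27 on the log2 scale, adjusted p = 1.87e-04, edgeR). Slc12a4, a potassium and chloride cotransporter known from red cells, rose from 5.95, 8.50 and 7.94 to 20.6, 18.04 and 22.4 CPM (1.47 ± 0.17, adjusted p = 1.28e-05, edgeR), and all KO libraries were also above the P2- libraries at 14.0, 14.3 and 14.1 CPM. Slc41a3 (1.15 ± 0.12) and Slc22a23 (1.005 ± 0.12) followed, and Slc45a3 (0.81 ± 0.07), the glucose transporter Slc2a8 (0.87 ± 0.16) and Slc7a8 (0.89 ± 0.12) rose by less than 2-fold. Slc7a8 was at 43.3, 37.9 and 36.3 CPM in KO and 23.4, 19.0 and 21.6 in WT libraries. It thus stood higher both in KO than in WT and in P2+ than in P2- PreMegEs, whereas Slc22a4, Slc12a4, Slc41a3, Slc22a23 and Slc2a8 had negative log2 fold changes between the fractions.

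Slc6a15 fell most, by 2.31 ± 0.34 on the log2 scale (adjusted p = 1.21e-04, edgeR). Slc24a5 (-1.08 ± 0.31) and Slc27a6 (-1.34 ± 0.27), a protein of the fatty acid transport family, also fell. Slc27a6 was at 7.15, 7.64 and 7.65 CPM in WT and 2.72, 3.81 and 2.17 in KO libraries. The anion transporter Slc26a11 (-0.91 ± 0.30, adjusted p = 0.0494, edgeR) and the vesicular polyamine transporter Slc18b1 (-0.98 ± 0.28, adjusted p = 0.0243, edgeR) were nearer to the threshold. Slc26a11 lost the call without any 1 library except KO replicate 3, at -0.99 to -0.72, and with relative log expression size factors (-0.91) or in 1 fit over all 12 libraries (-0.90). Slc18b1 lost it in that fit (-0.97) and without WT replicate 2 or 3 or KO replicate 1 or 3, at -0.94 to -0.87. Slc24a5 lost it without WT replicate 2 (-0.99) or KO replicate 2 (-0.97) or 3 (-0.98). Slc9a5, a sodium and proton exchanger named after its value was seen, was at 3.47, 1.80 and 2.57 CPM in WT and 0.614, 0.847 and 1.45 in KO libraries (-1.42, adjusted p = 0.0405, edgeR). Slc35d3, so different between the fractions, had a log2 fold change of -0.44 ± 0.15 (adjusted p = 0.0613, edgeR).

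By class, 5 of 38 mitochondrial carriers were higher (13.2%, against 6.18% of all genes) and 2 lower (5.26%, against 8.76%) in KO PreMegEs. Slc25a21 (0.74 ± 0.15) and Slc25a42 (0.52 ± 0.12) were higher. The lower ones were Slc25a45 (-0.34) and Slc25a4, at 102.6, 88.7 and 85.8 CPM in KO, 122.2, 126.1 and 132.7 in WT, 130, 119.6 and 113.1 in P2- and 129.4, 118 and 131.5 in P2+ libraries (-0.44 ± 0.08, adjusted p = 6.34e-04, edgeR). The KO libraries of Slc25a4 lay below every library of the 3 other groups. Of 26 amino acid and peptide transporters 4 were higher (Slc7a8, Slc38a7, Slc38a9 and Slc43a1) and 2 lower, which is 15.4% and 7.69%. Of 25 metal ion transporters 3 were higher and 3 lower, 12% each way. Choline transporters again went opposite ways, Slc44a1 up by 0.49 ± 0.09 and Slc44a2 down by 0.41. Slc29a1 rose by 0.50 ± 0.11 and Slc12a2 fell by 0.39 ± 0.10, and these calls were lost without KO replicate 3 (0.39) and without WT replicate 2 (-0.29) or KO replicate 1 (-0.285), respectively. The call of Slc12a2 was also lost in 1 fit over all 12 libraries (-0.38). Among carboxylate transporters, 0 of 5 were called at an adjusted p under 0.05 (edgeR).

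KO and WT PreMegEs share no library with P2+ and P2- PreMegEs, so the changes of the members can be set against each other. Of the 49 members higher in P2+ than in P2- PreMegEs, 2 were higher (4.08%) and 13 lower (26.5%) in KO than in WT PreMegEs, against 1.48% and 31.3% of the 2501 genes of that kind tested in both comparisons. The 40 members lower in P2+ held 16 that were higher (40%) and 1 that was lower (2.5%) in KO PreMegEs, against 23.8% and 1.65% of 2179 genes. The members thus split in the direction in which all genes did, and a difference between the shares was not tested. Of the 100 other members tested, 3 were higher and 5 lower. Across the 187 members tested in both comparisons, the log2 fold changes had a Pearson r of -0.63 and a Spearman rho of -0.64. Across all 12591 genes tested in both, r was -0.53 and rho -0.54. These are correlations across genes measured in the same libraries, and genes are not independent replicates.

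**Figure D4:**
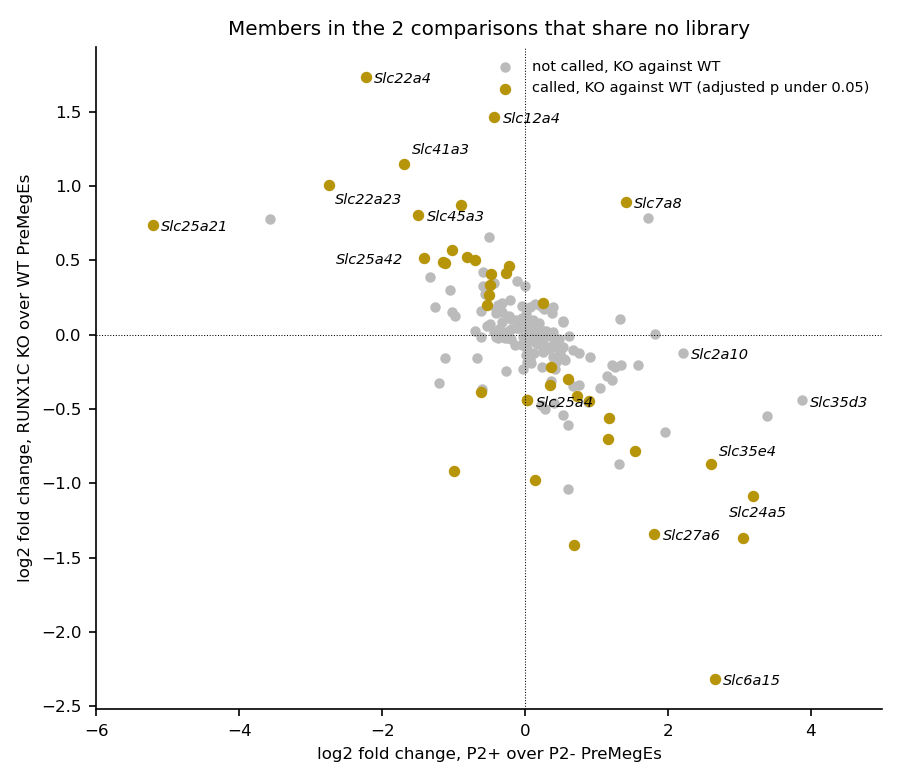
Log2 fold change of KO over WT (vertical axis) against that of P2+ over P2- PreMegEs (horizontal axis) for the 187 members tested in both, with members called between KO and WT coloured. Most coloured points lie at the upper left or the lower right, and Slc7a8, at 0.89 and 1.41, lies at the upper right.

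The position of a library was read on the scale from P2- (0%) to P2+ (100%) as the median over the 89 members called between the fractions, in log2 of CPM plus 0.5. The WT libraries were at 53.7%, 49.6% and 47.9%, and the KO libraries at 21.1%, 16.9% and 15%. Over all 4762 genes called between the fractions, the WT libraries were at 52.1%, 50.0% and 48.5% and the KO libraries at 21.7%, 22.8% and 18%. The KO libraries thus stood nearer to P2- than the WT libraries did, for the members as for all genes. The WT mean in CPM lay between the means of the fractions for 78 of the 89 members (87.6%), against 89.8% of all genes called, and the KO mean for 67 (75.3%, against 77.9%).

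P2+ and P2- PreMegEs were each also compared with WT PreMegEs, to ask which fraction departs from the mixed population. Both comparisons use the same WT libraries, so their values are given side by side. In P2+ against WT, 27 of 189 members were higher and 20 lower (14.3% and 10.6%, against 9.45% and 7.07% of 12941 genes), and 8 and 6 of them by at least 2-fold (4.23% and 3.17%, against 2.16% and 1.68%). In P2- against WT, 18 of 187 were higher and 18 lower (9.63% each, against 6.85% and 9.6% of 12767 genes), and 3 and 8 by at least 2-fold (1.6% and 4.28%, against 0.572% and 4.1%). Scaled by column totals alone, 13 members were higher and 26 lower in P2- against WT at an adjusted p under 0.05. Of all genes 1981 were called then, against 2101 in the main fit. Their split by direction was not counted, so that of the members cannot be set against it. Without WT replicate 1, 8 members were higher and 13 lower, and 1121 of all genes were called. The median log2 fold change over the members was 0.04 and -0.02, and over all genes 0.00 and 0.01.

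Some members departed from WT in P2+ PreMegEs mainly. Slc7a8 was higher in P2+ than in WT by 1.65 ± 0.12 on the log2 scale (adjusted p = 1.13e-05, edgeR) and differed from WT by 0.25 ± 0.17 in P2- PreMegEs, which was not called. Slc16a9 behaved alike, with 1.59 ± 0.28 in P2+ and -0.23 ± 0.34 in P2-. Slc25a42 was at -1.15 ± 0.18 in P2+ and 0.28 ± 0.12 in P2-. Slc17a9 had -0.83 ± 0.22 and 0.23 ± 0.17, Slc7a7 -0.92 ± 0.23 and 0.35 ± 0.20, and Slc26a11 -1.15 ± 0.35 and -0.15 ± 0.29, in the same order. The fall of Slc17a9 in P2+ was not called without WT replicate 1 (-0.71), WT replicate 2 (-0.83) or P2+ replicate 1 (-0.61), and that of Slc7a7 not without WT replicate 1 (-0.86), WT replicate 2 (-0.86) or P2+ replicate 3 (-0.92). Slc26a11 lost the call without any 1 library except P2+ replicate 2, at -1.26 to -0.86, and between the fractions it missed the threshold (adjusted p = 0.0845, edgeR), and passed it with the replicate number as a block (0.0336) and in 1 fit over all 12 libraries (0.0368).

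Others departed from WT in P2- PreMegEs. Slc6a15 was lower in P2- than in WT by 2.48 ± 0.31 on the log2 scale (adjusted p = 4.91e-04, edgeR) and differed by 0.16 ± 0.25 in P2+ PreMegEs. Slc27a6 fell by 1.70 ± 0.27 in P2- and had 0.10 ± 0.27 in P2+. Slc22a4 rose by 1.46 ± 0.28 in P2- and had -0.78 ± 0.39 in P2+, which was not called, and Slc1a4 rose by 0.98 ± 0.16 in P2- and had 0.38 ± 0.20 in P2+. Slc12a4 was higher by 0.98 ± 0.19 in P2- and had 0.54 ± 0.22 in P2+, and the difference between the fractions missed the threshold (adjusted p = 0.0752, edgeR) but passed it with the replicate number as a block (0.0375) and in 1 fit over all 12 libraries (0.0446). The difference between these departures is the comparison of the fractions themselves, given above.

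Several moved away from WT in both fractions, in opposite directions. Slc35d3 was at 1.26 ± 0.20 in P2+ and -2.61 ± 0.28 in P2- (adjusted p = 0.00177 and 2.04e-04, edgeR). Slc24a5 (1.40 ± 0.20 and -1.79 ± 0.32) and Slc35e4 (1.11 ± 0.18 and -1.48 ± 0.29) were called in both comparisons. So were Slc22a23 (-1.55 ± 0.19 and 1.20 ± 0.12), Slc41a3 (-0.70 ± 0.15 and 1.01 ± 0.13) and Slc45a3 (-0.67 ± 0.13 and 0.83 ± 0.11), and Slc14a1 (0.56 ± 0.10 and -0.77 ± 0.10). Slc25a21 was lower by 4.35 in P2+ but higher by 0.87 ± 0.21 in P2- (adjusted p = 0.0208, edgeR), and the latter call was lost without WT replicate 1 (0.91) or 3 (0.69) or P2- replicate 1 (0.78) or 3 (0.76). The fall of Slc41a3 in P2+ was not called without WT replicate 2 (-0.63).

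By class, P2- against WT had 6 mitochondrial carriers higher and 0 lower by edgeR, while P2+ had 2 higher and 4 lower, of 38 tested in each. These are 15.8% and 0% of them in P2-, against 6.85% and 9.6% of all genes, and 5.26% and 10.5% in P2+, against 9.45% and 7.07%, and the differences between these shares were not tested. The 6 were Slc25a1, Slc25a3, Slc25a5, Slc25a21, Slc25a39 and Slc25a44, with log2 fold changes of 0.30 to 0.87, and the calls of Slc25a5 and Slc25a39 were lost without WT replicate 1 (0.27 and 0.33) or 2 (0.30 and 0.29) among others. Amino acid and peptide transporters had 3 higher (11.1%) and 5 lower (18.5%) of 27 in P2-, and 8 higher (30.8%) and 3 lower (11.5%) of 26 in P2+. Nucleotide sugar transporters had 0 higher and 3 lower (13.6%) of 22 in P2-, and 5 higher (22.7%) and 1 lower (4.55%) in P2+. Of the 25 metal ion transporters tested in P2+, 5 were higher (20%) and 1 was lower (4%), and of 24 tested in P2- 1 was higher (4.17%) and 3 were lower (12.5%).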

How the data were processed

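RNA-Seq counts of PreMegEs were analysed, 3 libraries each of WT, P2-, P2+ and RUNX1C KO cells. The authors aligned the strand-specific poly(A) reads to GRCm38 with Bowtie2 (version 2.21 in the submitters' processing notes) and assigned them to Ensembl genes using featureCounts. What was deposited is a table of raw counts. Whether counting used the strand, and how reads with several alignments were treated, is not given in the sources used here. Exons of 38 members overlap a gene on the other strand and those of 10 overlap one on the same strand (GENCODE vM21).

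Members, substrate classes, marker lists and named genes were chosen with earlier results of these data known. Classes were written from general knowledge of each family. The list of genes that are not transporters gained Slc4a1ap after its name had been seen in the table. Named genes are, in each comparison, the 6 largest rises and 6 largest falls among members at an adjusted p under 0.05 whose higher group averaged at least 5 CPM and whose libraries did not overlap, the member of each substrate class with the highest RPKM, a panel of known transporters, and the neighbours of the level. Some members that these rules name are not reported here, though the counts, sums and fits include them. Other names, the counts by position and the searched motifs were chosen after values were seen.

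Each comparison was fitted to its 6 libraries with edgeR 4.0.16 in R 4.3.3 after dropping genes that did not reach 1 CPM in 3 of them, with TMM scaling and the quasi-likelihood F-test, adjusted by Benjamini-Hochberg over all genes tested. The script was tested on simulated data. CPM uses column totals, and errors of log2 fold changes are standard errors. Libraries are pools of mice that the labels list as separate samples, and p-values measure the spread between them. P2+ and P2- libraries of the same number deviated together from their group means (correlations across genes of 0.40, 0.59 and 0.43), so the numbers pair these libraries, but the values reported come from the fit without that block, which is an alternative. Alternatives were other scalings, DESeq2 1.42.0, the exact test of edgeR, other filters, 1 fit over 12 libraries, the replicate number as a block, and leaving out libraries.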

Additional observations from a re-analysis of the deposited data

How the results depend on the processing

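The number of members called stayed within 1.5 times its value under other size factors, column totals, DESeq2, the exact test, both other filters and the replicate block in all 4 comparisons. The exceptions among the other settings are these. Requiring at least 2-fold left 39 of 89 members for P2+ against P2-, 14 of 47 for P2+ against WT, 11 of 36 for P2- against WT and 9 of 40 for KO against WT. Fitting all 12 libraries together gave 26 for KO against WT, where 1276 of all genes were called against 1910 in the main fit. Without 1 library at a time the counts were 68 to 84 for P2+ against P2-, 27 to 51 for P2+ against WT, 21 to 38 for P2- against WT and 25 to 34 for KO against WT. The libraries that moved a count most were WT replicate 1 (29) and WT replicate 2 (27) for P2+ against WT, WT replicate 1 (21) for P2- against WT, and KO replicate 1 (26) and KO replicate 2 (25) for KO against WT. Among all genes tested, the counts without 1 library were 3763 to 4505, 1225 to 2455, 1121 to 2180 and 1189 to 1738, in the same order of comparisons. With all 6 libraries they were 4762, 2138, 2101 and 1910. Leaving out a library also leaves fewer samples in the fit, and no other cause was tested.

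With the replicate number as a block, 111 of 187 members were called between the paired P2+ and P2- libraries, beside 6514 of all 12836 genes. Without it, 89 members and 4762 genes were called, so the count rose over all genes too. Elsewhere the numbers did not pair the libraries (correlations between -0.10 and 0.19). There the replicate block gave 40 members for P2+ against WT, 28 for P2- against WT and 44 for KO against WT. Among all genes it gave 1901, 1469 and 2091 in the same order. Of 97 calls of named members, 25 were lost under at least 1 setting, 11 of them only when a library was left out, and 0 changed direction under edgeR or DESeq2.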
